A study of Rattus norvegicus with 4 samples.

Results

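The nuclear genes for the subunits of the respiratory chain and of the mitochondrial ATP synthase were followed by ribosome profiling in neonatal rat ventricular cardiomyocytes with and without phenylephrine (PE). Members were the annotated coding ORFs whose gene names begin with Nduf (assembly factors named Ndufaf left out), Uqcr, Cox4 to Cox8 or Atp5, or equal Sdha, Sdhb, Sdhc, Sdhd or Cyc1. For each gene the ORF with the most summed counts was taken. This gave 84 genes with 92 annotated ORFs, of 13694 genes with an annotated ORF in the table. By name, 37 belong to complex I, 4 to complex II, 9 to complex III, 16 to complex IV and 18 to complex V.

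The electron transport chain passes electrons from NADH, through complex I, and from succinate, through complex II, to coenzyme Q. Complex III hands them on to cytochrome c, and complex IV, cytochrome c oxidase, passes them to oxygen. Complexes I, III and IV pump protons, and complex V, the ATP synthase, uses the proton gradient to make ATP. Most subunits are encoded in the nucleus, translated in the cytosol and imported, whereas a few core subunits are encoded by mitochondrial DNA. In heart, where contraction depends on oxidative phosphorylation, several complex IV subunits exist in a muscle form (Cox6a2, Cox7a1, Cox8b) and a form found in most tissues (Cox6a1, Cox7a2, Cox8a).

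Cardiomyocytes came from ventricles of Sprague-Dawley rats at postnatal day 2 and were separated from other cells by preplating. The PE group had 20 µM PE, an agonist of alpha-adrenergic receptors used to induce hypertrophic growth in such cultures, for 24 h, and the control group had none. Each group had 2 libraries, and all cells were treated with cycloheximide, which halts cytosolic ribosomes, before lysis. Whether the libraries of a group stem from separate cultures is not stated, and p-values therefore reflect only how far these libraries scatter, which may be technical.

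Totals were 12117629 and 12537740 counts in the PE libraries, against 11446574 and 13827599 in the control libraries. Levels are given in CPM, the count scaled to the library's total on listed ORFs with TMM factors. Of the 64444083 ribosomal P-sites, pooled over libraries, 84.7% lay in frame 0, and the share over the members was 85.3%. Of 7 cardiomyocyte markers, 6 were listed and none of these was at 0. Their summed level was 76734 and 77366 CPM with PE, against 72364 and 72512 CPM in control, but 4 of the 6 were lower and 2 higher, with a median log2 fold change of -0.13. Actc1, cardiac actin, rose by more than the whole sum, with 34182 and 34540 CPM with PE, against 24200 and 24176 CPM in control. Without Actc1, the listed cardiomyocyte markers were thus lower in sum with PE. The 7 fibroblast markers summed to 20775 and 21010 CPM with PE, against 34366 and 34633 CPM in control, and 4 of 6 tested were lower and 1 higher. The 5 listed of 6 endothelial markers summed to 123 and 129 CPM with PE, against 218 and 211 CPM in control, with 3 of 5 lower. All 6 leukocyte markers were lower, with 257 and 252 CPM in sum with PE, against 412 and 396 CPM in control. The 4 smooth muscle markers summed to 1256 and 1255 CPM with PE, against 1419 and 1428 CPM in control, with 3 lower and 1 higher. No listed marker was at 0, and the part of these other cells in the results below was not tested. In such bulk libraries, fewer cells of a type and fewer footprints per cell cannot be told apart. A footprint count also combines the amount of an mRNA with its translation, and mRNA levels were not analysed here.

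Subunits changed in both directions with PE, most of them by less than 2-fold. Footprints of all members together made up 3.83% of the counts in each PE library, against 4.22% and 4.23% in control. Complex I took 0.988% in each PE library, against 1.13% and 1.14% in control. Complex II took 0.195% in each PE library, against 0.24% and 0.238% in control. Complex V, the largest share, took 1.66% in each PE library, against 1.84% in each control library. Complex III took 0.49% and 0.487% with PE, against 0.508% and 0.511% in control, and complex IV took 0.493% and 0.502% with PE, against 0.506% in both control libraries. For every complex, both PE shares of the raw library totals lay below both control shares. With TMM scaling, which the levels below use, complex IV summed to 4992 and 5111 CPM with PE, against 4991 and 4989 CPM in control, and no longer lay below.

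Of the 84 members, 80 passed the filter on low counts. In edgeR's quasi-likelihood test, with p-values adjusted after Benjamini and Hochberg over 12609 tested ORFs and a threshold of 0.05, 20 were higher with PE (25%) and 31 lower (38.8%). Over all tested ORFs the background was 21.4% higher and 21.3% lower, and over one annotated ORF per gene 22.3% and 22.8%. Members have high counts, which makes small changes easier to call. Among 2108 annotated genes with a mean of at least 1000 counts, 41.6% were higher and 34.8% lower, while the 63 members above this level gave 16 higher (25.4%) and 28 lower (44.4%). The median log2 fold change was -0.04 over the members, against -0.01 over all annotated genes. PE and control values did not overlap for 67 of the 80, where the background over all tested ORFs, at any count level, was 68.6%. Only 4 members, Ndufa4l2, Cox4i2, Cox8b and Atp5md, changed over 2-fold of the 80 tested, where the background was 8.65%. When a change of more than 1.2-fold was tested, a choice made after seeing the data, 5 members were higher and 5 lower, with backgrounds of 10.4% and 11.2%.

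**Figure D1:**
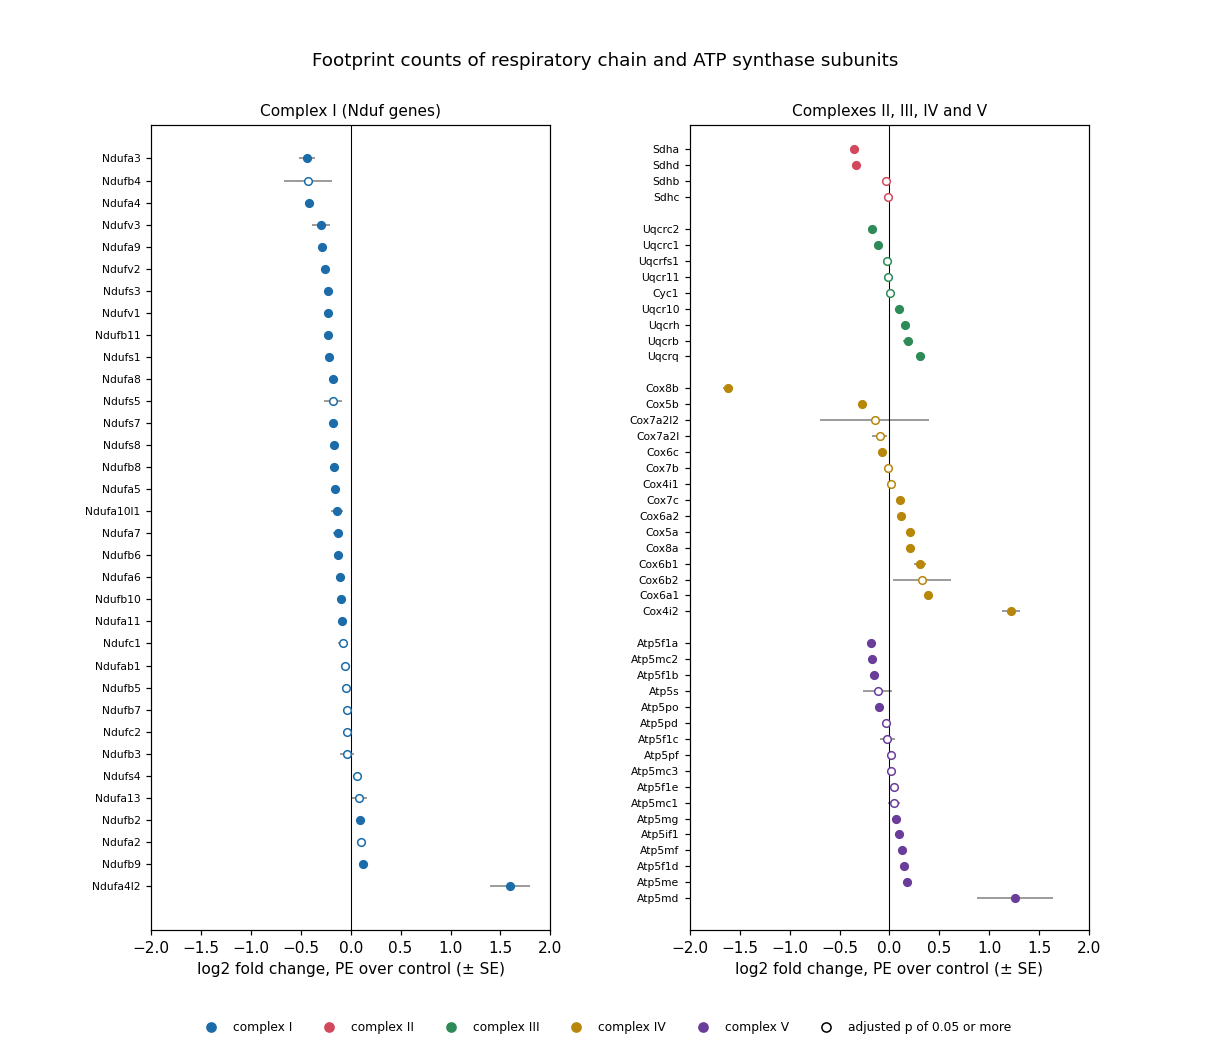
Log2 fold change, PE over control, with its standard error, for the tested subunits, split by complex, with 1 of complex I not drawn; filled points passed the test at an adjusted p of 0.05 and open points did not. Most complex I subunits lie just below 0, and the 4 points beyond 1 or -1 are Ndufa4l2, Cox4i2, Atp5md and Cox8b.

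The 4 members that could not be tested were Ndufa1, Ndufa12, Atp5pb and Cox7a1. The first 3 had 0 counts in all libraries although P-sites were assigned to them, at 162 per codon for Ndufa1, 66.5 for Ndufa12 and 167 for Atp5pb. A count of 0 therefore does not give their level. Counts and P-sites went together for most ORFs, with a median of 1.12 counts per P-site over all ORFs, but 20 members had under 0.5. This is stated beside a member where it applies, since part of its footprints is not in its count. Many of these genes have processed pseudogenes, and how reads that match several places were counted is not stated, so such counts are uncertain.

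Complex I, NADH:ubiquinone oxidoreductase, was lower as a group of names. Of its 35 tested subunits, 20 were lower with PE (57.1%), 3 were higher (8.57%) and 12 did not pass, with a median log2 fold change of -0.13. Over one annotated ORF per gene, 22.8% were lower and 22.3% higher. At a mean of at least 1000 counts these shares were 34.8% and 41.6%. The 7 nuclear core subunits carry the flavin and iron-sulfur clusters that take electrons from NADH to coenzyme Q. Of these, 6 were lower and none was higher, with a median of -0.22. The largest by count, Ndufs1, which holds iron-sulfur clusters of the NADH-oxidising arm, had 1130 and 1123 CPM with PE, against 1308 and 1313 CPM in control. Both PE values lay below both control values, and the log2 fold change was -0.22 ± 0.02 (SE, n = 2 each, edgeR adjusted p = 3.7e-12). Ndufv1, the flavin-binding subunit, had 459 and 464 CPM with PE, against 541 and 544 CPM in control. Its neighbour in the same module, Ndufv2, had 411 and 419 CPM with PE, against 495 CPM in both control libraries. These 3 subunits of the NADH-oxidising module were lower by similar amounts, with log2 fold changes of -0.22 to -0.26.

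The accessory subunits surround this core and help its assembly and stability. Of 26 tested, 13 were lower and 2 higher, with a median log2 fold change of -0.10. Ndufa9, an accessory subunit next to the quinone-binding region, had 496 and 490 CPM with PE, against 597 and 608 CPM in control. The groups did not overlap, and the log2 fold change was -0.29 ± 0.02 (SE, n = 2 each, edgeR adjusted p = 2.6e-12). Ndufa3, a small membrane subunit, had 32.1 and 32.0 CPM with PE, against 43.7 and 43.4 CPM in control, with a log2 fold change of -0.44 ± 0.08 (edgeR adjusted p = 2.9e-05). Its ORF had 0.291 counts per P-site, so these values rest on part of its footprints. Ndufv3 had 29.5 and 31.8 CPM with PE, against 40.1 and 35.5 CPM in control, from 0.37 counts per P-site, with a log2 fold change of -0.30 ± 0.09 (edgeR adjusted p = 0.00709). The call for Ndufv3 was lost without PE replicate 1, without control replicate 1 and under DESeq2.

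The 2 accessory subunits that were higher belong to the membrane arm. Ndufb9 had 458 and 474 CPM with PE, against 426 and 432 CPM in control, with a log2 fold change of 0.12 ± 0.03 (SE, n = 2 each, edgeR adjusted p = 2.5e-04). Ndufb2 had 239 and 240 CPM with PE, against 222 and 227 CPM in control, with a log2 fold change of 0.09 ± 0.03 (edgeR adjusted p = 0.0239). Neither call held after correction for ORF length, whose trend is given further on. Ndufb2 then stood at -0.02, and its call was also lost under DESeq2, with library totals and without either PE library or control replicate 1.

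The other changes under Nduf names were in Ndufa4 and its paralogue Ndufa4l2. Ndufa4 was first described in complex I and is now placed in complex IV, and Ndufa4l2 is known as a hypoxia-induced protein. Ndufa4 (chromosome 4, 38234097 to 38240729, Rnor_6.0, ORF start to stop with introns) had 962 and 967 CPM with PE, against 1284 and 1296 CPM in control. All PE values were below all control values, a 1.34-fold lower level, with a log2 fold change of -0.42 ± 0.02 (SE, n = 2 each, edgeR adjusted p = 3.3e-19). Ndufa4l2 (chromosome 7, 70821959 to 70823408) had 9.78 and 10.2 CPM with PE, against 3.79 and 2.85 CPM in control. It was 3.03-fold higher, with a log2 fold change of 1.60 ± 0.20 (edgeR adjusted p = 8.7e-08). With both genes left out, complex I had 19 lower and 2 higher of 33 tested.

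Complex II, succinate dehydrogenase, feeds electrons from the citric acid cycle into coenzyme Q and has no mitochondrially encoded subunit. Its flavoprotein Sdha and one of its membrane anchors, Sdhd, were lower with PE, whereas the iron-sulfur subunit Sdhb and the other anchor, Sdhc, did not pass. Thus 50% of its 4 subunits were lower, against 22.8% of annotated genes and 34.8% of those with a mean of at least 1000 counts. Sdha (chromosome 1, 31545672 to 31570336) had 1066 and 1060 CPM with PE, against 1357 and 1362 CPM in control, with a log2 fold change of -0.36 ± 0.02 (SE, n = 2 each, edgeR adjusted p = 1.5e-17). Sdhd had 249 and 269 CPM with PE, against 327 and 332 CPM in control, with a log2 fold change of -0.34 ± 0.03 (edgeR adjusted p = 2.0e-10). For both genes the groups stood well apart. Sdhb had 412 and 402 CPM with PE, against 417 and 414 CPM in control, with a log2 fold change of -0.03 ± 0.03 (edgeR adjusted p = 0.381). Sdhc had 246 and 253 CPM with PE, against 262 and 242 CPM in control, with a log2 fold change of -0.01 ± 0.04 (edgeR adjusted p = 0.804). The difference between the subunits was not tested. With the ORF length trend removed, all 4 were called lower, at -0.31 for Sdha, -0.09 for Sdhb, -0.11 for Sdhc and -0.44 for Sdhd.

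Of 9 tested subunits of complex III, the cytochrome bc1 complex, 4 were higher (44.4%) and 2 lower (22.2%), with a median log2 fold change of 0.01. Annotated genes gave 22.3% and 22.8%, and those with a mean of at least 1000 counts 41.6% and 34.8%. Both lower ones were large core proteins and the 4 higher ones accessory subunits, which have shorter ORFs, and core and accessory subunits were not compared by a test. Cyc1, Uqcrfs1 and the accessory subunit Uqcr11 did not pass. Uqcrc2 had 1191 and 1190 CPM with PE, against 1348 and 1343 CPM in control, with a log2 fold change of -0.18 ± 0.02 (SE, n = 2 each, edgeR adjusted p = 3.7e-10). Uqcrc1 had 847 and 852 CPM with PE, against 913 and 927 CPM in control, with a log2 fold change of -0.12 ± 0.02 (edgeR adjusted p = 1.2e-05). The redox subunit Cyc1, cytochrome c1, had 616 and 632 CPM with PE, against 620 and 622 CPM in control, and did not pass (edgeR adjusted p = 0.833).

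The accessory subunit Uqcrq had 431 and 413 CPM with PE, against 341 and 338 CPM in control, the largest rise in complex III. Its log2 fold change was 0.31 ± 0.03 (SE, n = 2 each, edgeR adjusted p = 2.9e-11), and it was still higher, at 0.19, after the length trend was removed. Uqcrh, the hinge protein that contacts cytochrome c1, had 545 and 535 CPM with PE, against 477 and 486 CPM in control (log2 fold change 0.16 ± 0.02, edgeR adjusted p = 9.1e-07). Uqcr10 had 288 and 297 CPM with PE, against 271 and 277 CPM in control (log2 fold change 0.10 ± 0.03, edgeR adjusted p = 0.0131). In Uqcrb, with 0.276 counts per P-site, the levels were 120 CPM in each PE library, against 102 and 108 CPM in control (log2 fold change 0.19 ± 0.05, edgeR adjusted p = 0.00153). Of these 4 accessory subunits, Uqcrq alone kept its call after removal of the length trend, Uqcr10 then stood at -0.04, and Uqcr11 was called lower at -0.15. The call for Uqcr10 was also lost with library totals, under DESeq2, without PE replicate 2 and without control replicate 1.

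Complex IV had 7 of 15 tested nuclear subunits higher with PE (46.7%), 3 lower (20%) and 5 not past the test, with a median log2 fold change of 0.11. Background shares were 22.3% higher and 22.8% lower over annotated genes, and 41.6% and 34.8% at a mean of at least 1000 counts. Paired forms are described first. Promoter sequence of 3 of these genes is shown. Of the muscle forms, Cox8b was lower with PE and Cox6a2 was not, and Cox8a is the widely expressed partner of Cox8b. The letters are the 250 bases before the annotated start of transcription in RefSeq (GRCr8), 5′ to 3′ on the strand of the gene, and capitals mark matches to motifs described after them. The first lies at chr1:205408274-205408523, the second at chr1:213833624-213833873 and the third at chr1:192219717-192219966, all on the minus strand.
Cox8b: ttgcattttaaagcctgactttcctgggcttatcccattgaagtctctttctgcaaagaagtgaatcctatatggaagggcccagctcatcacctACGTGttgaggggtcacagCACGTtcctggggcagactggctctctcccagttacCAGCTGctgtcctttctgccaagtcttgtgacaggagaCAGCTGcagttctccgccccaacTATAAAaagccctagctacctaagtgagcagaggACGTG
Cox8a: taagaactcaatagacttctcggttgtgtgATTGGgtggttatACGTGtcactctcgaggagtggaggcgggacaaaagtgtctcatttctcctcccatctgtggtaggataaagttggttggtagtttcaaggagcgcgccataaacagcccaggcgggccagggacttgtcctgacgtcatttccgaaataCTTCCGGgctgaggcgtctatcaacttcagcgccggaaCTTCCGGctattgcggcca
Cox6a2: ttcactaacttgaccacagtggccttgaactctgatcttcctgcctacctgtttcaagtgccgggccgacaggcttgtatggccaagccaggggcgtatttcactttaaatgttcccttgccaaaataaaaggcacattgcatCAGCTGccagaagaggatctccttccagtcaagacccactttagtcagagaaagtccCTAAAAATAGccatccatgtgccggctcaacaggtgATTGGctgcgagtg

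Cox8b (chromosome 1, 213648836 to 213650190, Rnor_6.0), the muscle form of the smallest subunit, had 64.4 and 70.0 CPM with PE, against 205 and 209 CPM in control. Both PE libraries were far below both control libraries, a 3.08-fold lower level, with a log2 fold change of -1.62 ± 0.05 (SE, n = 2 each, edgeR adjusted p = 9.2e-24). Cox8a had 279 and 288 CPM with PE, against 241 and 247 CPM in control, and rose by 0.21 ± 0.03 (edgeR adjusted p = 1.4e-06). Per codon, Cox8b made up 18.6% and 19.3% of the footprints of the 2 forms with PE, against 45.6% and 45.5% in control. The log2 ratio of Cox8b to Cox8a was -2.11 and -2.04 with PE, against -0.23 and -0.24 in control, a difference of -1.84. With 2 libraries per group the smallest p an exact two-sided permutation test can give is 0.333, and that was its value for this ratio. Over the 4 pairs compared in this way the adjusted p was 0.444.

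Cox6a2, the heart and skeletal muscle form of subunit VIa, did not follow Cox8b. It had 833 and 873 CPM with PE, against 784 and 785 CPM in control, with a log2 fold change of 0.12 ± 0.02 (SE, n = 2 each, edgeR adjusted p = 2.4e-05). After removal of the length trend its log2 fold change was 0.00 and the call was lost. Cox6a1, the widely expressed form, had 462 and 495 CPM with PE, against 366 CPM in both control libraries, with a log2 fold change of 0.39 ± 0.03 (edgeR adjusted p = 4.2e-13). Cox6a1 also kept its call after removal of the trend, at 0.27. Per codon, Cox6a2 therefore made up 67.4% and 66.9% of this pair with PE, against 71.0% and 71.1% in control. The log2 ratio differed by -0.26 with no overlap of the groups (exact two-sided permutation p = 0.333, the smallest possible, adjusted 0.444).

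The remaining muscle form, Cox7a1, was barely detected. It had 0 counts in both PE libraries, against 0 and 2 counts in control, and 1.25 P-sites per codon, where the median complex IV subunit had 271. No Cox7a2 appears under that name. An ORF on chromosome 8 labelled Cox7a2l2 had 481 P-sites per codon but 0.00093 counts per P-site. RefSeq (GRCr8) places Cox7a2 on chromosome 8 and Cox7a2l2 on chromosome 14. No ratio of the Cox7a forms was taken. Cox7a2l, known in mouse as a factor that joins complexes III and IV, had 38.1 and 38.4 CPM with PE, against 41.8 and 40.2 CPM in control, and did not pass (edgeR adjusted p = 0.336).

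Cox4i2 (chromosome 3, 148235481 to 148245255), a form of subunit IV found in lung and induced by low oxygen, had 48.9 and 53.4 CPM with PE, against 21.8 and 22.1 CPM in control. It was 2.33-fold higher with no overlap, with a log2 fold change of 1.22 ± 0.09 (SE, n = 2 each, edgeR adjusted p = 1.4e-13). Cox4i1, the main form, had 1017 and 1024 CPM with PE, against 1010 CPM in both control libraries, and did not pass (log2 fold change 0.02 ± 0.02, edgeR adjusted p = 0.553). Cox4i2 stayed the minor form, with 4.51% and 4.87% of the pair per codon with PE, against 2.08% and 2.11% in control. The log2 ratio to Cox4i1 was -4.38 and -4.26 with PE, against -5.53 and -5.51 in control (exact two-sided permutation p = 0.333, the smallest possible, adjusted 0.444).

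Cox6b2, the testis form, had low counts in both groups, with 3.76 and 3.01 CPM with PE, against 2.84 and 2.57 CPM in control (edgeR adjusted p = 0.388). Cox6b1 had 77.5 and 80.4 CPM with PE, against 61.5 and 65.9 CPM in control, with a log2 fold change of 0.31 ± 0.06 (edgeR adjusted p = 8.9e-05). Its direction is uncertain. The table lists Cox6b1 under more than 1 gene ID, the ORF used had 0.143 counts per P-site, and the Cox6b1 ORF with the most P-sites stood at -0.04. The log2 ratio of the pair differed by 0.01 (exact two-sided permutation p = 1).

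**Figure D2:**
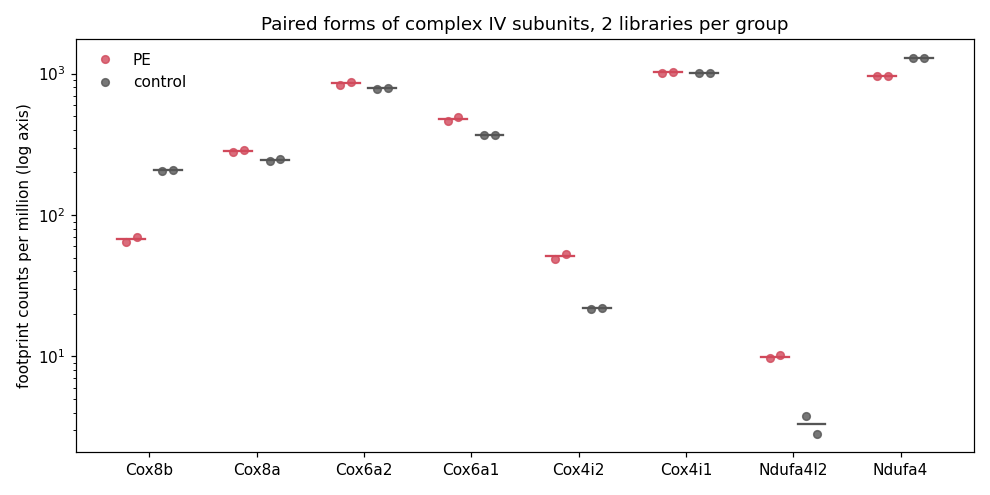
Footprint level in CPM, on a log axis, for 4 pairs of complex IV subunit forms in each PE and control library, with a bar at the mean of each group. Cox8b was 3.08-fold lower with PE (64.4 and 70.0 against 205 and 209 CPM), while Cox4i2 and Ndufa4l2 were higher with PE and the partner forms Cox8a, Cox6a1 and Cox4i1 moved little on this axis.

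Subunits of complex IV with a single nuclear form went both ways, with 2 higher and 2 lower of 5. Cox5b, a zinc-binding subunit on the matrix side, had 544 CPM in each PE library, against 662 and 656 CPM in control, with a log2 fold change of -0.28 ± 0.02 (SE, n = 2 each, edgeR adjusted p = 2.8e-12). Cox6c had 564 and 565 CPM with PE, against 595 and 594 CPM in control (log2 fold change -0.07 ± 0.02, edgeR adjusted p = 0.00742), and the call was lost under DESeq2. Cox5a had 270 and 290 CPM with PE, against 245 and 240 CPM in control, from 0.355 counts per P-site (edgeR adjusted p = 6.3e-06). Cox7c had 519 and 517 CPM with PE, against 476 and 485 CPM in control (edgeR adjusted p = 4.3e-04), and this call was lost when the length trend was removed.

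Motifs known from promoters of oxidative and muscle genes were searched on both strands in the 250 bases before the start. This was done for the 71 of 84 members with a RefSeq entry and for 27386 other genes. The latter were all other genes with an entry, with no filter on expression or on an ORF listed here. The nuclear respiratory factor 1 motif, read as GCGC, any base and TGCGC, was in 10 members (14.1%), against 4.28% of the others. The core of ETS family sites, CCGGAAG, was in 18 (25.4%), against 8.07%. The estrogen-related receptor motif AAGGTCA was in 7 (9.86%), against 4.15%. ACGTG, the core of hypoxia-inducible factor sites, was in 17 (23.9%), against 18.0%. The MEF2 motif, read as CTA, any 4 bases and TAG, was in 2 members (2.82%), both of complex IV, against 3.71%. The muscle E-box CAGCTG was in 8 (11.3%), against 12.9%, the CCAAT box in 22 (31.0%), against 36.1%, and TATAAA in 6 (8.45%), against 14.1%. These shares are descriptions of letters and were not tested.

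In the sequences printed above, Cox8b holds TATAAA 39 bases before the start, CAGCTG at 100 and 62 bases, and 3 matches to ACGTG or its reverse. Cox8a has neither TATAAA nor CAGCTG, and holds CCGGAAG, read on the other strand as CTTCCGG, at 57 and 19 bases. Cox6a2 holds the MEF2 match CTAAAAATAG at 50 bases and CAGCTG at 107 bases. No base was shared by 2 matches. A match is not evidence of binding, and no factor was measured on these promoters.

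Complex V had 6 of 17 tested members higher with PE (35.3%), 4 lower (23.5%) and 7 not past the test, with a median log2 fold change of 0.02. Over annotated genes the shares were 22.3% and 22.8%, and at a mean of at least 1000 counts 41.6% and 34.8%. The 5 subunits of the catalytic head and central stalk summed to 11229 and 11399 CPM with PE, against 12573 and 12625 CPM in control. Atp5f1b, the catalytic beta subunit, was the most abundant member of all in counts. It (chromosome 7, 2504730 to 2511601) had 6108 and 6227 CPM with PE, against 6870 and 6894 CPM in control, with a log2 fold change of -0.16 ± 0.01 (SE, n = 2 each, edgeR adjusted p = 4.8e-12). Atp5f1a, the alpha subunit, had 4315 and 4358 CPM with PE, against 4945 and 4970 CPM in control, with a log2 fold change of -0.19 ± 0.01 (edgeR adjusted p = 5.9e-14). Both were lower by about the same amount, and the groups did not overlap. Atp5f1d, the delta subunit of the central stalk, had 367 and 375 CPM with PE, against 339 and 333 CPM in control (log2 fold change 0.15 ± 0.03, edgeR adjusted p = 5.7e-05). The other central stalk subunits, Atp5f1c and Atp5f1e, did not pass, and Atp5f1c had 0.048 counts per P-site.

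Of the peripheral stalk, which holds the head still, Atp5po had 1143 and 1162 CPM with PE, against 1252 and 1232 CPM in control (log2 fold change -0.11 ± 0.02, edgeR adjusted p = 1.0e-05). Atp5pd and Atp5pf did not pass. The c subunit that forms the rotating ring is encoded by 3 genes with the same mature protein. Atp5mc2 had 157 and 152 CPM with PE, against 172 and 177 CPM in control (log2 fold change -0.18 ± 0.04, edgeR adjusted p = 5.0e-04). Atp5mc3, the main source of c subunit footprints, had 1502 and 1470 CPM with PE, against 1486 and 1448 CPM in control, and did not pass.

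All 4 membrane subunits listed here were higher, 3 of them by small amounts. Of annotated genes 22.3% were higher, and 41.6% of those with a mean of at least 1000 counts. Atp5me had 371 and 359 CPM with PE, against 317 and 327 CPM in control (log2 fold change 0.18 ± 0.03, edgeR adjusted p = 4.8e-06). Atp5mf, with 0.49 counts per P-site, had 247 and 251 CPM with PE, against 227 and 228 CPM in control (log2 fold change 0.13 ± 0.03, edgeR adjusted p = 0.00132). Atp5mg had 486 and 502 CPM with PE, against 478 and 466 CPM in control (edgeR adjusted p = 0.0308). Atp5md had 27 and 41 counts with PE, against 11 and 19 in control, a log2 fold change of 1.26 ± 0.38 (edgeR adjusted p = 0.00771). Its ORF had 224 P-sites per codon but 0.00753 counts per P-site, so few of its footprints are behind this value. The Atp5md call was lost without PE replicate 2, without control replicate 1 and under DESeq2. Calls for the other 3 membrane subunits, and for Atp5f1d, were lost when the length trend was removed. The inhibitor of ATP hydrolysis, Atp5if1, had 579 and 574 CPM with PE, against 550 and 530 CPM in control (log2 fold change 0.10 ± 0.02, edgeR adjusted p = 0.00138), a call also lost on removal of the trend.

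Levels between subunits were compared per codon. Over the 64 members with at least 0.5 counts per P-site, the median level of complex I was 1.60 and 1.56 CPM per codon with PE, against 1.77 CPM per codon in both control libraries. Complex II was at a like level, at 0.97 ± 0.0386 times complex I with PE and 1.01 ± 0.0111 times in control (SD, n = 2 each). Complex III stood at 1.99 ± 0.0336 times complex I with PE and 1.88 ± 0.0165 times in control. For complex IV the ratio was 2.65 ± 0.0754 with PE and 2.00 ± 0.0341 in control. For complex V it was 3.25 ± 0.0115 with PE and 2.61 ± 0.0106 in control. These medians rest on 11 members of complex IV and 13 of complex V. The gene at the complex IV median was Cox8a in control, but Cox6a1 or Cox5b with PE. At the complex V median it was Atp5me, except in control replicate 1, where it was Atp5mg. Summed over all its members, complex V had 16813 and 16934 CPM with PE, against 18136 and 18117 CPM in control. Complex I summed to 10006 and 10066 CPM with PE, against 11147 and 11223 CPM in control. In each of the 4 libraries complexes I and II had the lowest medians, followed by III, IV and V, while complexes I and II were not in the same order in all libraries. In P-sites per codon, over all members and pooled libraries, the medians were 76.7 for complex I, 74.9 for complex II, 184 for complex III, 271 for complex IV and 243 for complex V, against 1.98 over all annotated genes. Complexes IV and V thus exchanged places when members with few counts per P-site were included.

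**Figure D3:**
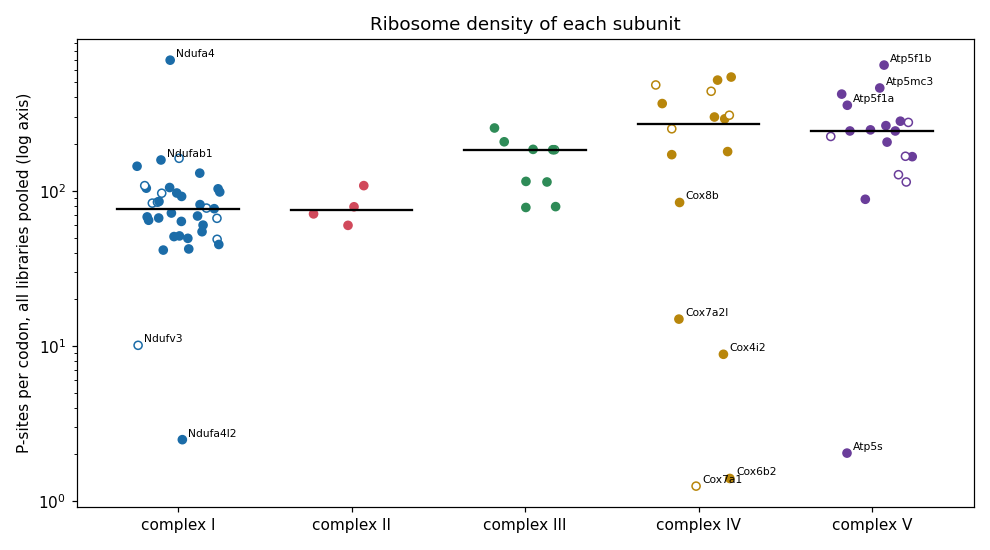
P-sites per codon, pooled over libraries and on a log axis, of each subunit by complex, with a bar at the median; filled points have at least 0.5 counts per P-site and open points fewer. Ndufa4 stands highest among the genes named for complex I at 695 P-sites per codon, and the rare forms Cox7a1, Cox6b2, Ndufa4l2 and Atp5s lie below 3.

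Within complexes, subunits differed in ribosome density. Density also varied with ORF length, with a Spearman correlation of -0.38 across the 84 members, and was not corrected for this. The median ORF was 435 nt in complex I, 676 nt in II, 333 nt in III, 256 nt in IV and 423 nt in V. Ndufa4 had 695 P-sites per codon, 9.06 times the median of the genes named for complex I without Ndufa4 and Ndufa4l2. The densest subunits named for complex IV, whose median was 271, were Cox6c (541), Cox7c (517), the ORF labelled Cox7a2l2 (481) and Cox7b (438). Ndufab1, the mitochondrial acyl carrier protein, which complex I holds in a pair of copies, had 158. This was 2.13 times the median of the other genes named for complex I, again without Ndufa4 and Ndufa4l2. Values of Ndufa1 (162), Ndufa5 (144) and Ndufb5 (130) were like that of Ndufab1. The alpha and beta subunits, which form the head in equal numbers, differed: Atp5f1b had 646 P-sites per codon and Atp5f1a 356, a ratio of 1.81. By counts this ratio was 1.49 ± 0.00972 with PE and 1.45 ± 0.00164 in control (SD, n = 2 each). Atp5f1c, the single gamma subunit, had 127, so that Atp5f1a stood 2.81 and Atp5f1b 5.09 times above it. The c subunit genes had 114 (Atp5mc1), 88.2 (Atp5mc2) and 460 (Atp5mc3), and their sum of 662 was 2.73 times the median of the peripheral stalk subunits, 243. P-sites per codon and CPM per codon had a Spearman correlation of 0.98 across the 64 members, which share the same libraries and reads.

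Footprint changes varied with ORF length over the whole data set, and the members are short. The median member ORF was 417 nt (153 to 2181), against 1338 nt over all annotated genes. Among the other genes, the median log2 fold change was 0.14 for ORFs up to 300 nt and also from 300 to 600 nt, 0.05 from 600 to 1200 nt and -0.02 from 1200 to 2400 nt. Members in the same bins had medians of 0.10 (n = 23), -0.04 (n = 37), -0.14 (n = 11) and -0.19 (n = 9). In every bin the members' median lay below that of other genes of like length. Across the 80 tested members, log2 fold change and length had a Spearman correlation of -0.43, against -0.20 over 11206 other genes.

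**Figure D4:**
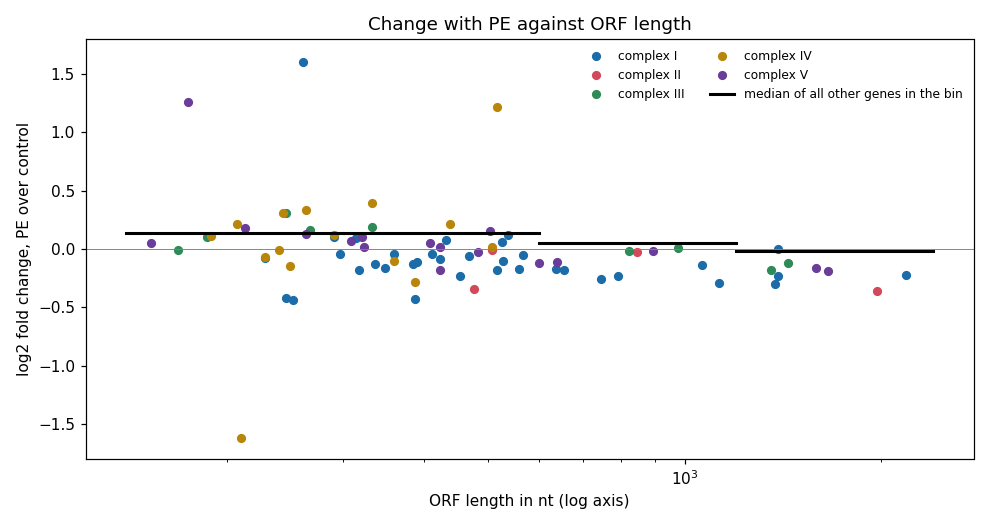
Log2 fold change, PE over control, of the 80 tested subunits against ORF length in nt (log axis), coloured by complex; black bars mark the median of all other annotated genes in the same length bin. Members above 600 nt lie mostly below the bars, whose medians are 0.05 and -0.02 there.

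When the length trend was taken out of each library before the same test, 8 members were higher and 48 lower, against 20 and 31 without this step. Background shares were then 20.9% higher and 19.7% lower over all tested ORFs, at any count level. Such shares at a mean of at least 1000 counts are not given, and without this step were 41.6% and 34.8%. With the trend removed, the members' median was -0.14, against 0.00 over all annotated genes. Complex I had 1 higher and 26 lower, with a median of -0.22. Complex II had all 4 subunits lower, and complexes III, IV and V had 4, 6 and 8 lower and 1, 5 and 1 higher. The 5 called higher in complex IV were Cox4i2 at 1.12, Cox6a1 at 0.27, Cox6b1 at 0.18, Cox5a at 0.11 and Cox8a at 0.08, where Cox5a and Cox8a had 0.21 and Cox6b1 0.31 without this step. The others were Ndufa4l2, Uqcrq and Atp5md. Of the 10 members called higher in complexes III and V, 8 lost the call in this way, and Uqcr10, Atp5mg and Atp5if1 also changed sign. The same 6 of the 7 complex I core subunits were lower both ways.

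Other genes of the pathway were taken as 8 lists, with 87 of 91 listed genes tested, of which 20 were higher (23.0%) and 13 lower (14.9%). Over all annotated genes these shares were 22.3% and 22.8%. Without control replicate 2, 12 were higher, and under DESeq2 10. Of 20 assembly factors of complex I, 2 were higher and 3 lower, with a median log2 fold change of -0.04. Ndufaf5, in human cells a hydroxylase of Ndufs7, had 19.4 and 20.4 CPM with PE, against 13.8 and 13.4 CPM in control (edgeR adjusted p = 3.1e-04), and Ndufaf7, a mitochondrial methyltransferase, had 33.2 and 33.0 CPM with PE, against 25.9 and 24.0 CPM in control (edgeR adjusted p = 5.0e-04). Acad9, Tmem126a and Tmem70 were lower, by 0.16 to 0.34 on the log2 scale, though under DESeq2 this list had 1 lower gene and with the length trend removed or library totals 5. Complex II factors had 1 of 3 higher (Sdhaf2, which attaches the flavin to Sdha, log2 fold change 0.24), a call lost without PE replicate 2 and, at 0.14, with the length trend removed. Without control replicate 1, 2 complex III factors were higher, while all 4 libraries gave 1 of 6 higher (Ttc19, log2 fold change 0.55) and 1 lower (Uqcc1, an early factor for cytochrome b, log2 fold change -0.33).

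Of 20 complex IV assembly factors, 6 were higher and 2 lower, with a median of 0.07. The number higher was 3 without PE replicate 1, and 2 without control replicate 2, under DESeq2 or with the length trend removed. Those with the smallest p were Pet100, Cox20 and Cmc2, at 0.40, 0.25 and 0.45 on the log2 scale. Pet100 had 42.1 and 44.4 CPM with PE, against 33.5 and 32.3 CPM in control (SE of the log2 fold change 0.08, edgeR adjusted p = 1.4e-04). Lrpprc, which stabilises mitochondrial mRNAs, had 596 and 600 CPM with PE, against 712 and 717 CPM in control (log2 fold change -0.26 ± 0.02, edgeR adjusted p = 7.6e-12). Cox15, needed to make heme a, had a log2 fold change of -0.39 ± 0.08 (edgeR adjusted p = 3.5e-04). Of 4 ATP synthase factors, Fmc1 alone passed, with 40.8 and 36.3 CPM with PE, against 61.8 and 64.6 CPM in control (log2 fold change -0.72 ± 0.07, edgeR adjusted p = 6.4e-10). Without PE replicate 1, with library totals or with the length trend removed, 2 of the 4 were lower.

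The list of cytochrome c, coenzyme Q synthesis and quinone reductases held the largest change. Of 18 tested, 8 were higher and 4 lower, with a median of 0.18. The number higher was 5 without PE replicate 1 or without control replicate 2, and 3 under DESeq2. Coq8a, an atypical kinase needed for coenzyme Q synthesis, had 137 and 140 CPM with PE, against 429 and 424 CPM in control, a 3.08-fold lower level (log2 fold change -1.62 ± 0.03, edgeR adjusted p = 2.0e-28). Coq10b, a coenzyme Q binding protein, had 90.0 and 86.0 CPM with PE, against 45.9 and 47.8 CPM in control (log2 fold change 0.91 ± 0.06, edgeR adjusted p = 5.7e-14). Sqor, which passes electrons from sulfide to coenzyme Q, and Pdss1, which makes its side chain, were also higher, by 0.66 and 0.58 on the log2 scale. Etfdh and Etfb, which bring electrons from fatty acid oxidation to coenzyme Q, were lower, with log2 fold changes of -0.31 and -0.29.

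For copying and transcription of mitochondrial DNA, 1 of 13 tested genes was higher (Tfb1m, log2 fold change 0.38) and 2 were lower. Polrmt, the mitochondrial RNA polymerase, had 11.4 and 13.7 CPM with PE, against 24.3 and 23.1 CPM in control (log2 fold change -0.92 ± 0.12, edgeR adjusted p = 1.5e-07), and Polg2, which helps the mitochondrial DNA polymerase, had a log2 fold change of -0.57 ± 0.21 (edgeR adjusted p = 0.0292). The higher call was lost without PE replicate 2, without control replicate 2 and under DESeq2, and 1 gene in place of 2 was lower without PE replicate 2, without control replicate 1 and under DESeq2. Of the 13 mitochondrially encoded subunits, 4 were listed, as short ORFs, and 1 was higher, Mt-nd5, with 38.2 and 36.9 CPM with PE, against 29.0 and 29.6 CPM in control (edgeR adjusted p = 9.7e-04). Without PE replicate 2, with the stricter filter or with annotated ORFs alone, 2 of the 4 were higher.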

How the data were processed

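Ribosome footprints of 4 libraries were analysed. Sample titles gave the group and replicate number of each, since the treatment text names PE for every library. Per the labels' protocols, fragments of 26 to 30 nt were cut from a gel after a wash with 100 µg/ml cycloheximide. The tools used, per the submitters' processing notes, include STAR 2.4.2a, Bowtie 1.1.2 and cutadapt 2.0, with the genome Rnor_6.0; which program called ORFs and which counted is not given in the sources used here. Deposited by the authors were raw counts per ORF for 18847 ORFs. The annotation they deposited holds ORF class, gene name, coordinates and pooled P-sites per frame, and, per the file headers, log2 fold changes, p-values and a normalized mean signal from the authors' DESeq2 comparison. Per-sample columns left unused numbered 0.

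Low counts were removed by filterByExpr, TMM gave scaling factors of 0.982 to 1.02, and the rest were tested with the robust quasi-likelihood test of edgeR 4.0.16 (R 4.3.3) on all 4 libraries, with Benjamini-Hochberg adjustment over 12609 ORFs and a threshold of 0.05. The biological coefficient of variation was 2.18%. Between libraries of one group, chi-square per degree of freedom was 1.60 for PE and 1.61 for control, and all libraries were kept. These values cannot tell separate cultures from repeat libraries of the same culture, since both can scatter beyond counting noise. Deviations of same-numbered libraries had a correlation of 0.0139 over 8282 ORFs with a mean count of at least 100, so numbers were not taken as pairs. The fit was tested on simulated data. A standard error is obtained from the log2 fold change over the root of the test's F. For the length trend, a loess curve (span 0.5) of log count against log2 ORF length gave an offset per library. Alternatives were other scalings and filters, DESeq2 1.42.0, a replicate block, each library left out, annotated ORFs alone, the ORF with most P-sites, and, added later, a test against a 1.2-fold change.

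Members and gene lists were chosen with earlier results of these data known. Named were the isoform pairs and Cox7a2l, complex II, Ndufa4, Cyc1, Atp5f1a and Atp5f1b, the most abundant member of each complex, and in complexes I, III, IV and V up to 4 called members with the largest change in each direction, groups apart and a mean count of at least 20. From each other list up to 3 genes with the smallest p per direction were named. Other members named were chosen after their values were seen. The values of 1 member are not reported here.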

Additional observations from a re-analysis of the deposited data

How the results depend on the processing

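With the ORF length trend removed, all members gave 8 higher and 48 lower, complex I 1 higher, complex II 4 lower, complex III 1 higher and 4 lower, complex IV 6 lower and complex V 1 higher and 8 lower. With a test for changes beyond 1.2-fold, a choice made after seeing the data, all members gave 5 higher and 5 lower, complex I 1 higher and 2 lower, complex III 1 higher and 0 lower, complex IV 2 higher and 1 lower, and complex V 1 higher and 0 lower, against 2 lower in complex III and 4 lower in complex V by the unshifted edgeR test. Of all ORFs, edgeR called 2696 higher and 2690 lower, DESeq2 1793 and 1799, and the 1.2-fold test 1307 and 1418. Library totals alone moved the median of all ORFs to -0.04. With them, 16 members were higher and 40 lower. Other genes of the pathway higher with PE numbered 10 under DESeq2 and 12 to 18 with 1 library left out, the 12 without control replicate 2.

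Reversed here means a change of sign with a call in either fit. Single members that reversed with the trend removed were Cox4i1 (-0.08), Ndufb2 (-0.02) and Uqcr10 (-0.04). Cox4i1 was called only with the trend removed, and Ndufb2 and Uqcr10 only in the main test. Cox6b1 reversed (-0.04) for the ORF with most P-sites, where the difference in the Cox6b2/Cox6b1 log2 ratio was 0.36. The cause was not tested. Ratios to complex I were also taken by P-sites per codon in place of counts, over the 64 members with at least 0.5 counts per P-site. They were 1.07 for complex II, 2.12 for complex III, 2.54 for complex IV and 3.51 for complex V. Over all members they were 0.977, 2.39, 3.53 and 3.16. The ratio of Atp5f1b to Atp5f1a by P-sites was 1.81. Over 38 named members and 493 comparisons with alternatives, 440 kept their side of the threshold (6 of them, none past it, with the other sign), 45 lost the call, 4 gained one and 4 reversed. Over single lists, 167 of 192 counts stayed within 1.5 times. With 1 library left out, member counts ranged over 16 to 19 higher and 27 to 29 lower. With the replicate block, 20 members were higher and 32 lower. Complex I had 21 lower with the block, 14 under DESeq2 and 26 with library totals, against 20 in the main test. The authors' deposited table has 16 members higher and 24 lower. Cox6b2 gave no value under the stricter filter, and the Cox7a pair none at all. Levels of the 20 members with under 0.5 counts per P-site are uncertain.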

Other observations

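Members also carried ORFs outside their annotated coding sequence. The annotation lists 15 such ORFs on 14 member genes: 3 upstream ORFs, 1 overlapping the start of the coding sequence, 6 downstream ORFs, 3 overlapping its end and 2 of another class, both on Atp5pb. Upstream ORFs lay on Ndufa8, Ndufb3 and Ndufs7. Of the 15, 4 had 0 counts in every library and 5 could be tested. By edgeR's quasi-likelihood test 0 of these passed, with 0 at an unadjusted p under 0.05 and 0 under DESeq2. The one with the highest mean count, 122, overlaps the start of Cox7a2l, with 101 and 120 counts with PE, against 122 and 145 in control. Both of those on Atp5pb and the ORF overlapping the end of Cox6b1 had 0 counts but 1715, 8546 and 7035 P-sites, as Atp5pb itself did.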
